A study of Homo sapiens with 18 samples.

Results

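The effect of a transcriptional repressor was measured in benign prostate epithelium as a difference of differences. RWPE1, an established line of benign human prostate epithelial cells, carried 1 of 3 constructs that are switched on by tamoxifen. All 3 constructs hold the DNA-binding domain of the androgen receptor, which recognises androgen response elements (AREs), and the ERT2 hormone-binding domain, which keeps the protein inactive until tamoxifen is added. The neutral construct ends in a 3X FLAG epitope tag alone, the repressive construct adds the KRAB domain and the activating construct adds the VP64 domain. The constructs were delivered by lentivirus and each line is a selected pool, so a construct and the pool that carries it cannot be told apart except through the vehicle arm of the same pool. Each pool received ethanol vehicle or tamoxifen for 48 hours, and each of the 6 groups held 3 libraries described as biological replicates. The dose is labelled 1.5 uM in one field and 1.25 uM in another. The comparison used 12 of the 18 libraries and took the tamoxifen effect of the KRAB line minus the tamoxifen effect of the neutral line, here called the interaction. A positive interaction means that tamoxifen moved a gene further up, or less far down, in the KRAB line than in the neutral line.

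KRAB is the repression domain of a large family of zinc finger proteins. It binds the scaffold protein TRIM28, which recruits the histone methyltransferase SETDB1 and the NuRD deacetylase complex, and chromatin near the binding site is closed. Because the neutral construct holds the same DNA-binding domain and is exposed to the same tamoxifen, its effect was subtracted, within the limits of 1 pool per construct. These libraries do not measure where each construct binds. AREs are bound by the androgen receptor and also by the glucocorticoid receptor, and genes such as FKBP5, TSC22D3 and PER1 are widely known targets of these receptors.

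The deposited table lists 57773 genes, and 5816 had at least 10 counts in at least 3 of the 18 libraries. Of these, 224 had a Benjamini-Hochberg adjusted p under 0.05 in the DESeq2 interaction test and are called (3.85% of those tested). The called genes comprised 136 with a higher (2.34%) and 88 with a lower (1.51%) tamoxifen effect in the KRAB line. An unadjusted p under 0.05 was reached by 808, and independent filtering left 3110 genes with an adjusted p. An absolute log2 interaction above 1 was reached by 66 of the higher and 38 of the lower genes.

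Libraries held between 675609 and 792282 counts, which is shallow, and a count of 0 allowed up to 3.79 to 4.44 CPM (counts scaled by the library total) at a floor of 3 counts. ZNF10, a source of KRAB domains, had 40 counts over the 6 KRAB libraries and 0 in the other 12. Basal markers (2427 to 4257 CPM summed over 6 genes) and luminal markers (816 to 1358) were present in each of the 12 libraries, KLK3 was at 0 in each, and 16 of 25 markers of other cell types were at 0 in all 12. Genes with an exon overlap on the opposite strand held 89.4% of all counts although they were 23.0% of genes, and MT-ND6, the only protein gene on its mitochondrial strand, took 71.7 to 79.6% of the counts of the 13 mitochondrial protein genes. The strand setting of the counting was not given in the sources used here. The counts listed for a gene may therefore come from its opposite-strand partner. Every gene below is named as the table lists it, with the partner of largest exon overlap beside it where the partner has a gene symbol. Whether counts were assigned to the strand opposite the transcribed gene was not tested, and it bears on which gene each row measures. A row means such a table entry, and a listed gene's own row and the row opposite it were counted apart. Counts of called rows on gene lists stand beside 2.34% higher and 1.51% lower of all rows tested. Called rows also held more counts, with a median row mean of 179 for higher and 216 for lower rows, beside 16.6 over all. The shares called on the lists were not compared at like counts.

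**Figure D1:**
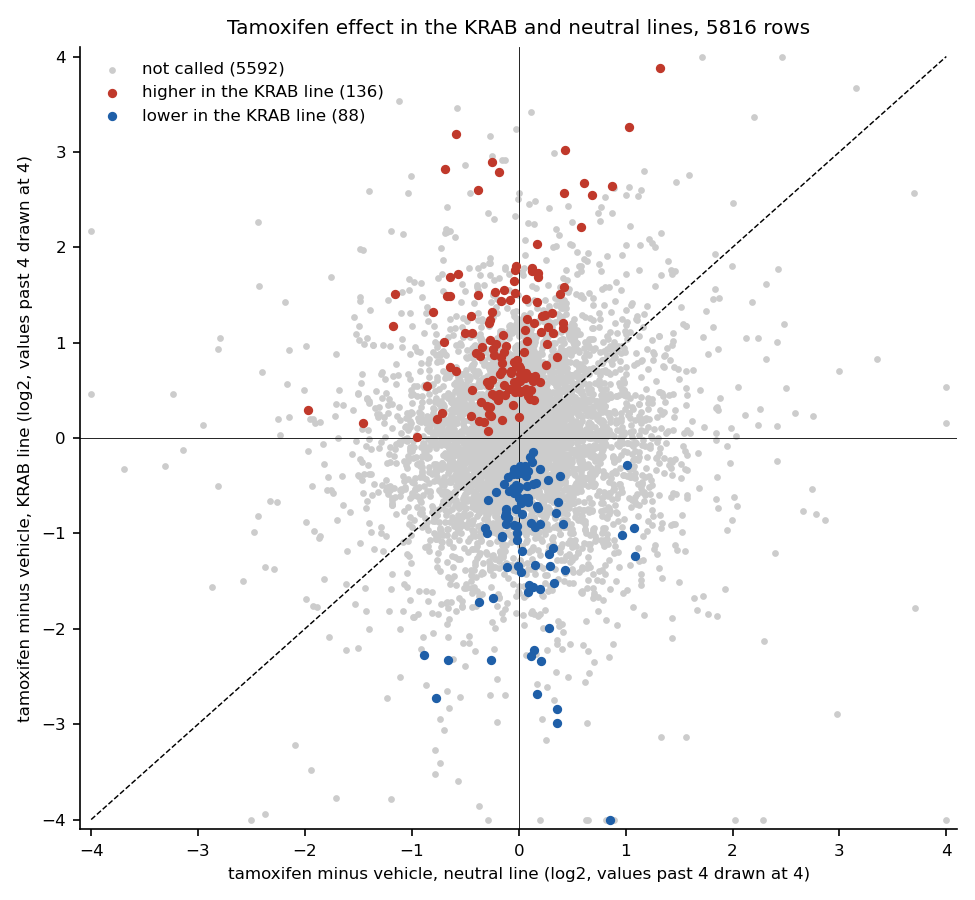
Each point is 1 of 5816 rows, with the tamoxifen minus vehicle log2 fold change in the neutral line on the x axis and in the KRAB line on the y axis; red marks the 136 rows with a higher and blue the 88 with a lower interaction, and the dashed line marks equal effects. The called rows spread along the y axis, with medians of 0.86 and -0.86 in the KRAB line, and stay near 0 on the x axis, with medians of -0.08 and 0.06 in the neutral line.

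The called rows moved mainly in the KRAB line. In all 136 higher rows the KRAB effect was above 0 and in all 88 lower rows it was below 0, while 54 of the 136 and 54 of the 88 had a neutral effect above 0. The neutral effect was the larger of the pair in absolute size in 15 of the 224. Taken alone, the KRAB line had 561 called rows (9.65%) and the neutral line 45 (0.774%). These figures share their libraries with the interaction and describe it.

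The ARE sequence itself was examined first. The consensus holds the arms AGAACA and TGTTCT with 3 free bases between them and reads alike on both strands. It was searched in the GRCh37 genome with at most 1 mismatch among its 12 fixed bases, and 15198 sites were found, 565 of them exact. Of the higher rows with a matched start, 29.4% lay within 50 kb of a site, of the lower rows 27.7% and of all rows tested 32.0%. Within 1500 bases the counts were 2 of 126 higher rows, 1 of 83 lower rows and 54 of 5619 tested (0.961%). By the start of each row itself, the called rows thus had sites nearby about as often as the rest of the table. Starts of opposite-strand partners were not part of these shares. The sites near LTBR (opposite SCNN1A), PER1 and TSC22D3, rows described next, are shown with those near the largest keratin row for comparison. Some sites not shown lay at -1528 bases from the start of PSCA, -5422 from that of RP11-66B24.4 and 4159 from that of RP3-416H24.1. A negative distance is before the start. Close sites were not limited to lower rows. The higher row SERPINB11 had a site at -4079 from its start and another 754 bases past the start of SERPINB3, its opposite partner. No site lay within 50 kb of the starts of CEBPD, MT2A or FKBP5. FKBP5 spans chr6:35541362-35696360, so much of the gene lay outside this window. The study reports AREs in FKBP5 enhancers that its constructs bound in LNCaP prostate cancer cells. Capitals are bases that match the consensus, and small letters are the free spacer or a mismatch.
LTBR and SCNN1A, chr12:6485484-6485498, in introns of both genes: AGgACAttcTGTTCT
PER1, chr17:8057778-8057792, in an intron: gGAACAtcaTGTTCT
TSC22D3, chrX:106987496-106987510, in an intron: AGcACActaTGTTCT
TSC22D3, chrX:106987868-106987882, in an intron: AGAACAaggTcTTCT
TSC22D3, chrX:107011074-107011088, in an intron: AGcACAgtaTGTTCT
TSC22D3, chrX:107037094-107037108, before the annotated start, in an intron of NCBP2L: AGAACAtgcTGTTaT
KRT13, chr17:39639433-39639447, between genes: AGAACAaagTGTTtT
KRT13, chr17:39647410-39647424, in an intron of KRT36: AGAACAaccTGcTCT
Only TSC22D3 among the called rows had 4 sites within 50 kb of its start, as did 8 of the 5619 rows (0.142%) with 4 or more. None of these matches is known from these data to be bound.

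Some steroid receptor targets fell further in the KRAB line than in the neutral line, 3 of 15 glucocorticoid receptor targets with a tested row among them. The row with the smallest adjusted p among the lower rows was LTBR (ENSG00000111321, chr12:6484211-6500737, plus strand), which encodes the lymphotoxin beta receptor. Its exons overlap 422 bases of SCNN1A, the alpha subunit of the epithelial sodium channel, a textbook target of corticosteroids. The site printed above lies 1280 bases past the LTBR start and 1405 bases past the SCNN1A start.

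LTBR had normalized counts of 614, 677 and 678 with vehicle in the KRAB line and 95.1, 115 and 89.1 with tamoxifen. The neutral line went from 550, 493 and 492 to 296, 300.1 and 302. All tamoxifen values lay under all vehicle values in both lines, and the fall was 6.62-fold in the KRAB line. The log2 interaction was -1.95 (SE 0.157, adjusted p 1.41e-32). The VP64 line went the other way, from 519, 537 and 529 to 822, 719 and 742 (log2 0.53, adjusted p 9.95e-07). SCNN1A's own row held about 10.1 normalized counts on average, and its log2 interaction of -1.70 (SE 1.12) received no adjusted p.

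TSC22D3 (GILZ, a leucine zipper protein induced by glucocorticoids; ENSG00000157514, 71 bases opposite NCBP2L) had 31.3, 39.5 and 20.2 normalized counts with vehicle in the KRAB line and 3.88, 5.80 and 3.14 with tamoxifen. The neutral line held 26.0, 27.7 and 38.4 with vehicle and 51.1, 31.2 and 35.6 with tamoxifen. Only the KRAB tamoxifen libraries were low, and the log2 interaction was -3.20 (SE 0.637, adjusted p 3.10e-05). CEBPD, a transcription factor of the acute response, fell from 153, 142 and 131 to 24.3, 30.2 and 33.5 in the KRAB line and from 131, 112 and 138 to 73.2, 65.3 and 67.2 in the neutral line. Both lines fell with no overlap between the arms, the KRAB line further (log2 interaction -1.39, SE 0.355, adjusted p 0.00310, and 0.0532 with voom).

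MT2A, a metallothionein that binds zinc, had 26.6, 26.0 and 11.02 with vehicle and 6.79, 3.48 and 2.10 with tamoxifen in the KRAB line (log2 interaction -2.55, SE 0.797, adjusted p 0.0265). Its call was lost without any 1 of 6 libraries (adjusted p up to 0.105) and with edgeR (0.0512). FKBP5, the co-chaperone of steroid receptors, fell from 60.8, 26.0 and 46.9 to 5.82, 8.12 and 8.38 in the KRAB line. It also fell without overlap in the neutral line, from 27.1, 36.3 and 28.6 to 14.5, 11.7 and 24.4 (log2 -0.87). Its interaction of -1.72 (SE 0.593) missed the threshold (adjusted p 0.0519) and passed it in 6 alternative fits, total-count scaling among them. PER1, a circadian regulator, had no adjusted p (log2 interaction -1.71, SE 0.851). ZBTB16, below the count filter, had 18 counts with vehicle and 1 with tamoxifen over the KRAB libraries, and 16 and 13 in the neutral line.

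Of those 15 glucocorticoid receptor targets none rose, and the median log2 interaction was -0.83, beside -0.03 over all rows. Lower rows made up 1.51% of all rows tested. Of 12 androgen response genes none was called on its own row (median -0.34), with edgeR or with DESeq2, although 3 had an unadjusted p under 0.05 and 1 was called with total-count scaling. Of 6 opposite rows on that list, RP11-66B24.4 (opposite ALDH1A3, a retinaldehyde dehydrogenase) fell from 2263, 2186 and 2464 to 1366, 1520 and 1578 in the KRAB line and held 2171 to 2544 in all 6 neutral libraries (log2 interaction -0.69, SE 0.106, adjusted p 1.23e-08).

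PSCA, a surface antigen of prostate epithelium (ENSG00000167653, 367 bases opposite JRK), had 27, 35 and 29 counts with vehicle in the KRAB line and 0 in each tamoxifen library. Against the floor of 3 counts per library this is at least 8.78-fold lower. In the neutral line it had 6, 13 and 8 counts with vehicle and 18, 19 and 12 with tamoxifen, and in the VP64 line 7, 8 and 9 and then 35, 43 and 35. The arms did not overlap in the KRAB and VP64 lines, down in the first and up in the second, and they overlapped in the neutral line. The interaction test gave an adjusted p of 1.92e-07. Independent filtering left PSCA without an adjusted p in the neutral and VP64 lines and, in the interaction, without any 1 of 8 libraries. Among luminal genes PSCA was the only own row called of 12 (median -0.08, 6 above 0). Of 7 opposite rows (median 0.23, 5 above 0) only RP3-416H24.1 (opposite KRT7, a simple epithelial keratin) was called, from 2214, 2439 and 2348 to 1981, 1779 and 2122 (log2 interaction -0.37, SE 0.0963, adjusted p 0.00362). None of the 21 own and 4 opposite rows of basal genes was called by DESeq2 or edgeR (medians 0.03 and -0.11; unadjusted p under 0.05 in 3 and 2). Lists of inflammatory and ion transport genes added little to these rows. Of 7 own rows of TNF and NF-kB signalling only LTBR was called (median -1.74), and none of 3 opposite rows was by either tool (median -0.40; unadjusted p under 0.05 in 1). Of 6 own rows of epithelial sodium transport only TSC22D3 was called (median -1.24), and of 5 opposite rows only LTBR (median -0.06).

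**Figure D2:**
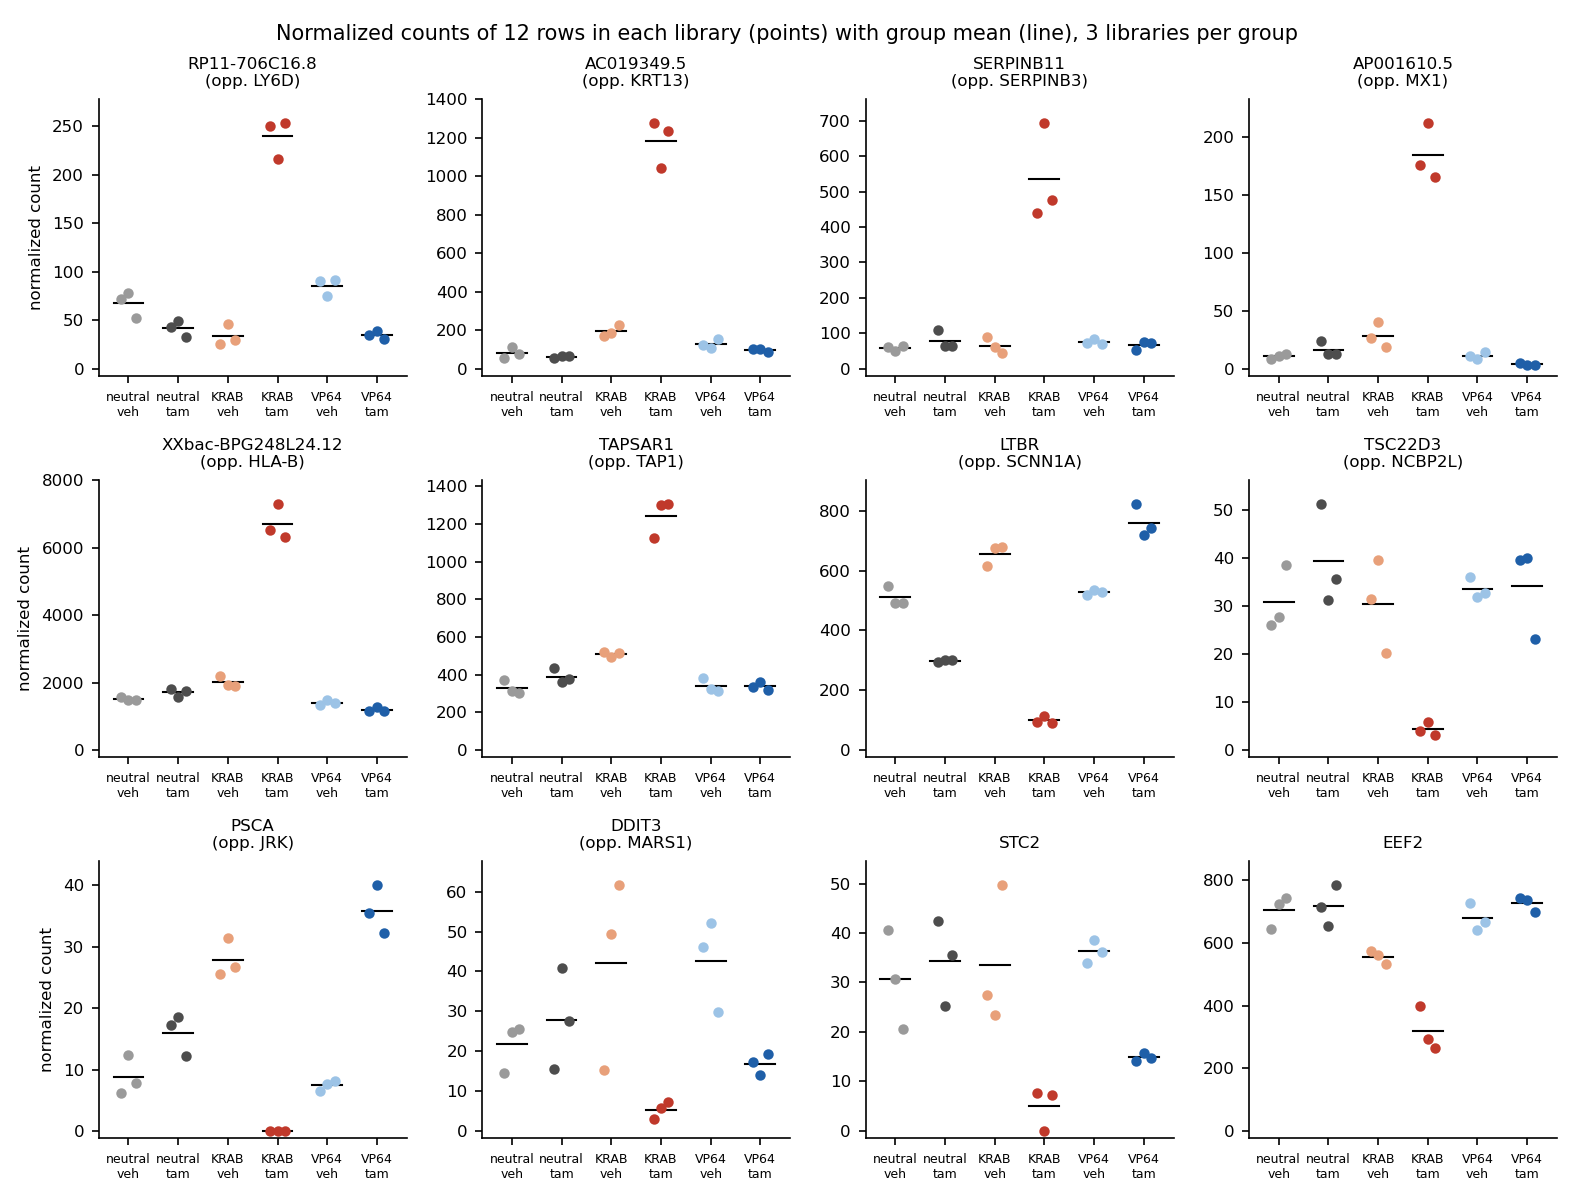
Each panel shows 1 row, with its normalized count on a linear y axis from 0 and the 6 groups on the x axis; points are libraries (3 per group), lines are group means, veh is vehicle and tam is tamoxifen. RP11-706C16.8, AC019349.5, SERPINB11, AP001610.5, XXbac-BPG248L24.12 and TAPSAR1 are high only with tamoxifen in the KRAB line. LTBR, TSC22D3, PSCA, DDIT3, STC2 and EEF2 have their lowest values there, and LTBR and PSCA have their highest with tamoxifen in the VP64 line.

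Some genes of squamous (stratified epithelial) differentiation rose in the KRAB line. Of 13 own rows 3 rose and none fell (median log2 interaction 1.07), and of 7 opposite rows 5 rose and none fell (median 2.15). Over all rows tested 2.34% were higher and 1.51% lower. Summed over the 7 opposite rows, the KRAB line went from 356, 395 and 386 normalized counts with vehicle to 2189, 2118 and 2174 with tamoxifen. The neutral line held 442, 497 and 449 and then 504, 460 and 425. The VP64 line held 471 to 570 in all 6 libraries.

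The locus of LY6D, a surface protein of stratified epithelium, was called on both strands. RP11-706C16.8 (ENSG00000253715, chr8:143866790-143893536, plus strand, 216 exonic bases opposite LY6D) had 25.6, 46.7 and 29.4 with vehicle and 250.4, 216 and 253 with tamoxifen in the KRAB line. The neutral line moved from 71.8, 78.4 and 52.2 to 43.4, 49.7 and 32.6. The KRAB libraries rose and the neutral libraries fell without overlap of their arms (log2 interaction 3.50, SE 0.340, adjusted p 5.25e-22). LY6D itself had 8.55, 4.49 and 8.27 and then 83.5, 55.7 and 54.5 in the KRAB line (log2 interaction 3.78, SE 0.646, adjusted p 5.19e-07). In the VP64 line RP11-706C16.8 fell (log2 -1.31, adjusted p 7.34e-06).

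AC019349.5 (ENSG00000229732, chr17:39657235-39658661, 476 bases opposite KRT13, the keratin of suprabasal layers in stratified mucosa) had 173, 188 and 227 with vehicle and 1273, 1043 and 1233 with tamoxifen in the KRAB line. All 6 neutral libraries held between 56.9 and 114. The interaction was 2.98 (SE 0.250, adjusted p 8.58e-30), and KRT13's own row, with a log2 interaction of 1.16 (SE 1.75), had no adjusted p. SERPINB11 (opposite SERPINB3, the squamous cell carcinoma antigen) went from 89.2, 62.9 and 45.9 to 441, 692 and 477 (interaction 2.59, SE 0.334, adjusted p 3.16e-12). Its 6 neutral libraries lay between 51.6 and 110, under every KRAB tamoxifen value.

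CTC-518B2.12 (opposite KLK10, a serine protease of the kallikrein family) rose from 9.49, 3.59 and 3.67 to 37.8, 32.5 and 28.3, with an interaction of 2.15 (SE 0.686, adjusted p 0.0292). FGFBP1, which releases stored fibroblast growth factors, rose from 13.3, 17.1 and 13.8 to 108, 62.7 and 105 (1.77, SE 0.591, adjusted p 0.0407). CDSN (the corneodesmosome adhesion protein, 2394 bases opposite PSORS1C1) rose from 84.5, 61.1 and 77.2 to 166, 199 and 176 (1.07, SE 0.315, adjusted p 0.0157). RP11-770G2.5 (opposite OVOL1, a transcription factor of epidermal differentiation) rose from 49.4, 91.6 and 71.7 to 173, 129 and 176 (0.90, SE 0.293, adjusted p 0.0347). These 4 calls were less firm: single libraries removed those of CTC-518B2.12 (5 of 12, adjusted p up to 0.155), FGFBP1 (8, up to 0.136), CDSN (3, up to 0.0978) and RP11-770G2.5 (9, up to 0.137), and edgeR called only CDSN.

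Of the other squamous own rows, KRT6A (-0.76, adjusted p 0.176) and KRT16 (-0.43, adjusted p 0.603), keratins of activated epidermis, did not pass, nor did ELF3 (1.18, adjusted p 0.0931), an epithelial transcription factor. AP001615.9 (opposite RIPK4, a kinase of epidermal differentiation), chosen after its values were seen, went from 86.4, 101 and 119 to 367, 294 and 303 in the KRAB line, and its 6 neutral libraries held 108 to 152 (interaction 1.69, SE 0.234, adjusted p 1.54e-10). C10orf55 (opposite PLAU, the urokinase protease) was among the 10 largest, from 123, 75.5 and 129 to 276, 352 and 302 (1.88, SE 0.308, adjusted p 1.15e-07).

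**Figure D3:**
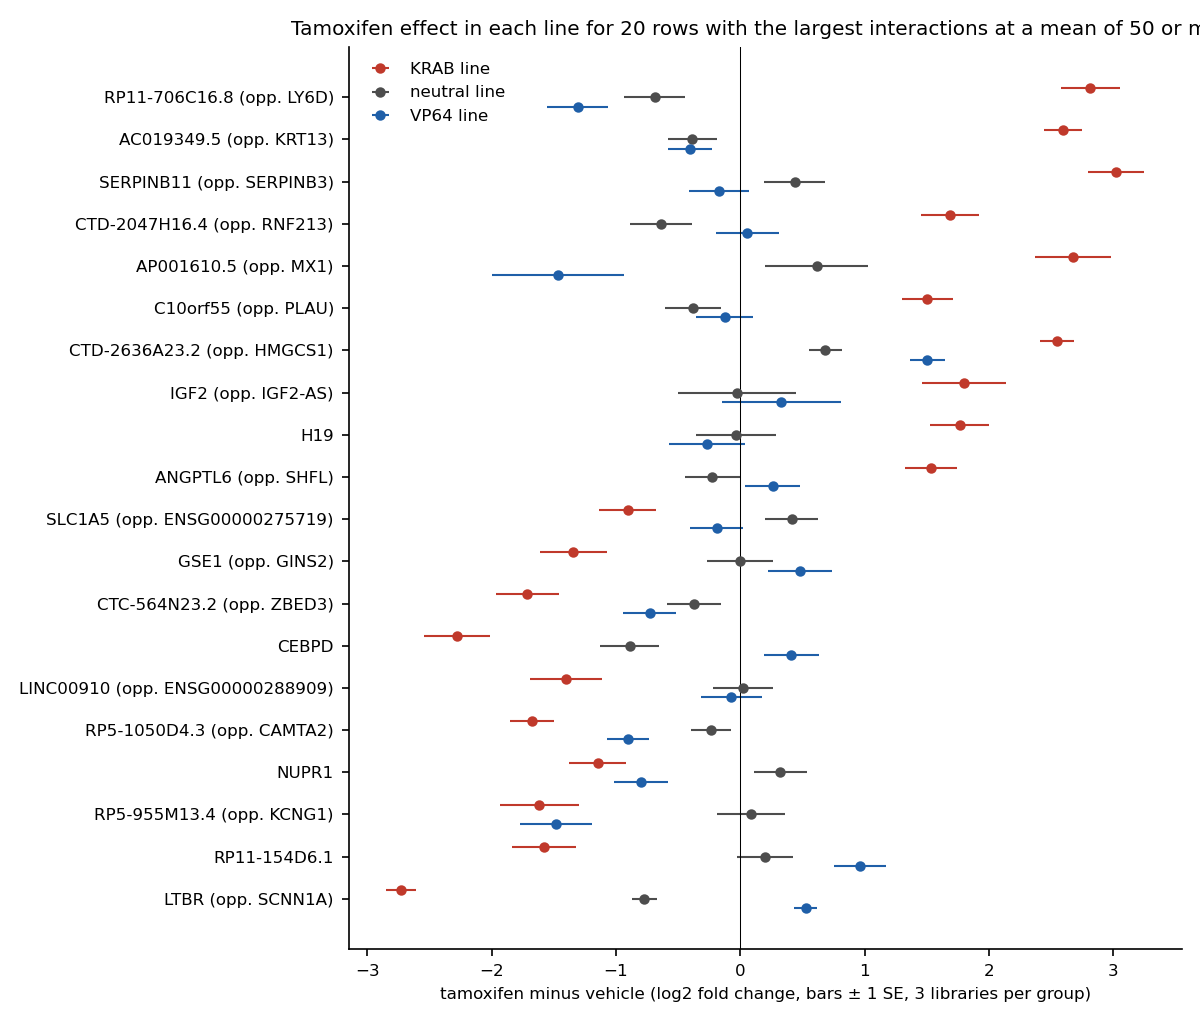
The tamoxifen minus vehicle log2 fold change (x axis, bars ± 1 SE, 3 libraries per group) is drawn for the 10 higher and 10 lower rows with the largest interactions at a mean of at least 50 normalized counts, in the KRAB (red), neutral (grey) and VP64 (blue) lines. The red points sit farthest from 0 in all 20 rows, and the VP64 points lie on both sides of 0, from -1.48 to 1.51.

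Several rows opposite interferon-stimulated and class I genes rose, while few of those genes' own rows did. Of 10 opposite rows on the interferon list 5 rose and none fell (median 1.40). Of 21 own rows only HLA-B was called (median 0.76, 18 of 21 above 0). Over all rows tested 2.34% were higher. The filter matters here, since 8 of the own and 3 of the opposite rows passed it only through the KRAB tamoxifen libraries. None of those 11 was called. Both medians and the 18 of 21 include them, and passing in this way favours values above 0, so these figures are no measure of the list. Among all rows tested, 238 passed it that way and 1 was called.

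AP001610.5 (ENSG00000228318, 436 bases opposite MX1, an interferon-induced antiviral GTPase) had 26.6, 40.4 and 19.3 with vehicle and 176, 211 and 166 with tamoxifen in the KRAB line, against 8.33 to 24.1 in the 6 neutral libraries. The interaction was 2.06 (SE 0.516, adjusted p 0.00236). CTD-2047H16.4 (opposite RNF213, an interferon-induced ubiquitin ligase) rose from 58.9, 64.7 and 51.4 to 184, 190 and 188, while the neutral line moved from 87.4, 75.6 and 58.1 to 32.8, 61.4 and 47.8 (2.32, SE 0.344, adjusted p 3.05e-09). ANGPTL6 (opposite SHFL, an inhibitor of viral frameshifting) rose from 88.3, 153 and 91.0 to 321, 359 and 283 (1.76, SE 0.305, adjusted p 7.91e-07). NANS (opposite TRIM14, an antiviral adaptor) rose from 117, 124 and 93.7 to 287, 345 and 268 (1.25, SE 0.322, adjusted p 0.00328), with the call lost only without replicate 1 of the neutral vehicle group (adjusted p 0.0529). TLDC2 (opposite SAMHD1, a nucleotide hydrolase that restricts viruses, chosen after its values were seen) rose from 150, 177 and 104 to 409, 374 and 393 (1.53, SE 0.303, adjusted p 3.10e-05).

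Class I molecules carry peptides to the cell surface, and TAP1 pumps those peptides into the endoplasmic reticulum. The largest row of the group, XXbac-BPG248L24.12 (ENSG00000271581, chr6:31324424-31325414, 671 bases opposite HLA-B), went from 2207, 1926 and 1907 to 6515, 7286 and 6306 in the KRAB line. The neutral line held 1585, 1479 and 1469 and then 1798, 1570 and 1762. The change was 3.33-fold in the KRAB line, and the interaction of 1.56 (SE 0.107, adjusted p 2.35e-44) had the smallest p of all rows named here. HLA-B itself moved from 36.1, 45.8 and 29.4 to 149, 94.0 and 131 (1.63, SE 0.457, adjusted p 0.00945), a call lost without replicate 3 of the neutral vehicle group (adjusted p 0.0869) and without replicate 1 of the KRAB tamoxifen group.

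HCG4P11 (opposite HLA-F) went from 308, 253 and 287 to 843, 985 and 909 (1.51, SE 0.212, adjusted p 2.41e-10). HCG4P7 (opposite the pseudogene HLA-H) had an interaction of 1.69 (SE 0.458, adjusted p 0.00653), and HLA-C one of 1.07 (SE 0.337, adjusted p 0.0274; lost without any 1 of 6 libraries, up to 0.135, and with edgeR, 0.0678). Class I genes and their pseudogenes are near-identical in sequence, so the split of reads among these rows is uncertain.

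TAPSAR1 (opposite TAP1) rose from 518, 492 and 513 to 1126, 1300.0 and 1304 (1.05, SE 0.150, adjusted p 6.37e-10). CTC-425F1.4 (opposite CALR, the chaperone calreticulin) rose from 217, 238 and 250 to 480, 608 and 547 (1.07, SE 0.184, adjusted p 7.44e-07). The own rows of TAP1 (1.17, adjusted p 0.0685) and CALR (0.84, adjusted p 0.0622) did not pass. On this list, drawn up after the values were seen, 5 of 9 opposite and 2 of 11 own rows rose and none fell. Over all rows tested 2.34% were higher. In the VP64 line XXbac-BPG248L24.12 fell (-0.22, adjusted p 0.0461).

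Promoters were then searched for the core of the interferon-stimulated response element, GAAA repeated with 2 free bases between, on both strands of the 250 bases before each RefSeq start (GRCh38.p14 table). It was in 1061 of 35116 promoters (3.02%). Overlapping matches were counted apart. It was in 26 of 52 promoters of all listed interferon genes and in 3 of the 8 promoters of those whose own or opposite row was called (37.5%). These were promoters of MX1, TAP1 and TRIM14, and of HLA-F on the class I list, and it was not among these letters for HLA-B, HLA-C and RNF213. The TAP1 promoter, found unchanged in GRCh37 at chr6:32821482-32821731 on the minus strand, held it 2 times in overlap and is shown because its opposite row rose. Capitals mark the matches, here on the reverse strand.
TAP1: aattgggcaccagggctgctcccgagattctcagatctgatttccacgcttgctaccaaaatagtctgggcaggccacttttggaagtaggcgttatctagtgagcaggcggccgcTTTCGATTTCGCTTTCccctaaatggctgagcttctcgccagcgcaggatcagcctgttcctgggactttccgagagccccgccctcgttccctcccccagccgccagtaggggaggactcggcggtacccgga

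Some stress-response and amino acid genes fell in the KRAB line. The integrated stress response raises ATF4, which in turn activates genes of amino acid synthesis and transport and the regulators DDIT3 and TRIB3. Of 15 own rows on this list 6 fell and none rose (median -1.21; 3 with edgeR and 2 without replicate 2 of the KRAB tamoxifen group), and none of 4 opposite rows was called by DESeq2 or edgeR (median -0.66; unadjusted p under 0.05 in 2). Lower rows made up 1.51% of all rows tested. The 15 own rows summed to 1189, 1256 and 1231 normalized counts with vehicle and 798, 761 and 712 with tamoxifen in the KRAB line. The neutral line held 1230, 1189 and 1355 and then 1268, 1241 and 1292. In the VP64 line the sums were 1252, 1464 and 1330 with vehicle and 1156, 975 and 917 with tamoxifen, also without overlap.

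DDIT3 (CHOP, a stress-induced transcription factor; 413 bases opposite MARS1) had 15.2, 49.4 and 61.6 with vehicle and 2.91, 5.80 and 7.34 with tamoxifen in the KRAB line, against 14.6 to 40.9 in the 6 neutral libraries. The interaction was -3.35 (SE 0.723, adjusted p 1.93e-04, and 0.0768 with voom). STC2, a secreted stanniocalcin, fell from 27.5, 23.4 and 49.6 to 7.76, 0 and 7.34 (-2.86, SE 0.648, adjusted p 4.70e-04, and 0.0528 with voom). NUPR1, a stress-induced chromatin protein, fell from 104, 166 and 168 to 62.1, 54.5 and 80.7, and its neutral libraries held 107 to 169 (-1.47, SE 0.312, adjusted p 1.38e-04). In the VP64 line NUPR1 also fell (-0.80, adjusted p 0.00548).

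PHGDH, the first enzyme of serine synthesis, had an interaction of -2.40 (SE 0.793, adjusted p 0.0382). TRIB3, a pseudokinase, had -2.07 (SE 0.652, adjusted p 0.0274) and SLC3A2, the heavy chain of amino acid exchangers, -1.21 (SE 0.369, adjusted p 0.0211). These 3 calls were lost with edgeR (adjusted p 0.0673, 0.0587 and 0.0573) and without any 1 of 3, 6 and 5 libraries. ATF4 (-0.83, adjusted p 0.482) and the heat shock chaperone HSPA5 (0.86, adjusted p 0.333) did not pass.

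On the list of amino acid synthesis and transport, drawn up after the values were seen, 4 of 16 own rows and 2 of 6 opposite rows fell and none rose. Over all rows tested 1.51% were lower. SLC1A5 (the glutamine transporter, 794 bases opposite a gene without a symbol) went from 108, 97.0 and 108 to 59.2, 44.1 and 62.9 in the KRAB line and from 121, 84.2 and 99.5 to 139, 141 and 125 in the neutral line (-1.32, SE 0.315, adjusted p 0.00109). AARS (which charges the alanine tRNA, 43 bases opposite DDX19B) had -2.28 (SE 0.721, adjusted p 0.0281; 0.0555 with edgeR and 0.0819 without replicate 1 of the neutral vehicle group). RP11-498C9.13 (opposite PYCR1, the last enzyme of proline synthesis) fell from 353, 350.3 and 382 to 140, 145 and 142, with 343 to 424 in all neutral libraries (-1.24, SE 0.203, adjusted p 1.15e-07). SLC4A5 (opposite MTHFD2, a mitochondrial folate enzyme) fell from 346, 211 and 266 to 121, 129 and 164 (-0.97, SE 0.250, adjusted p 0.00327). In the VP64 line RP11-498C9.13 fell too (-0.84, adjusted p 6.70e-07).

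The promoters of these genes were searched for TGATGNAA, the core of the element that C/EBP and ATF proteins share, in the same windows and on both strands. It was in 1104 of 35116 promoters (3.14%), in 5 of 34 promoters of all listed stress genes and in 0 of the 10 of called members, and in 3 of 26 and 1 of 8 (SLC1A5) for the amino acid list.

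Some rows of ribosomal proteins and translation factors were lower. Of the 79 own rows of cytosolic ribosomal proteins 9 fell, none rose and 73 were below 0, with a median of -0.46 (3 called with edgeR, 15 with total-count scaling); of 16 opposite rows 3 fell (median -0.35). The own rows summed to 8682, 9229 and 8309 with vehicle and 6985, 6111 and 6075 with tamoxifen in the KRAB line. The sums were 8622, 9382 and 9848 and then 9756, 8929 and 9477 in the neutral line, and 8720, 8868 and 9842 and then 9647, 9584 and 10061 in the VP64 line. The KRAB tamoxifen libraries lay under all 15 others. This list was also drawn up after the values were seen. Lower rows made up 1.51% of all rows tested.

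RPL13A fell from 398, 404 and 393 to 266, 247 and 232 in the KRAB line, and the neutral line held 334 to 419 (-0.70, SE 0.169, adjusted p 0.00135). RPL13 fell from 461, 540 and 452 to 348, 339 and 350 (-0.62, SE 0.144, adjusted p 7.05e-04). RPL3 (-0.88), RPS18 (-0.91), RPS14 (-0.78), RPL4 (opposite ZWILCH; -0.74), RPS24 (-0.72), RPS17L (-0.62) and RPS2 (-0.53) had adjusted p between 0.0160 and 0.0438. ATG10 (opposite RPS23) fell from 7283, 7815 and 7538 to 5669, 5415 and 6343, with 8550 to 9078 in the neutral line (-0.33, SE 0.0766, adjusted p 8.04e-04). SH3D19 (opposite RPS3A) had -0.34 (adjusted p 0.0254) and AC010761.8 (opposite RPL23A) -0.30 (adjusted p 0.0478). The calls of RPL13A, RPL13 and ATG10 stood without each single library, and those of the other 9 were lost without 2 to 9 of the 12, with adjusted p up to 0.179 for AC010761.8. Ribosomal protein genes have many processed pseudogenes, which can share their reads.

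EEF2, the elongation factor that moves the ribosome along, fell from 575, 561 and 533 to 399, 294 and 265 in the KRAB line, and its 6 neutral libraries held 643 to 783 (-0.82, SE 0.157, adjusted p 1.24e-05). EEF1A1 (which delivers charged tRNA, 337 bases opposite EEF1A1-AS1) had a log2 interaction of -0.72 (SE 0.189, adjusted p 0.00408), and PABPC1, the poly(A)-binding protein, one of -0.91 (SE 0.246, adjusted p 0.00652). RP11-983P16.4 (opposite EIF4B, an initiation factor) fell from 778, 774 and 874 to 425, 385 and 481, with 878 to 974 in the neutral line (-0.86, SE 0.131, adjusted p 8.10e-09). Of 30 own rows of translation factors 3 fell and none rose (median -0.39), and of 9 opposite rows 1 fell (median -0.42). Over all rows tested 1.51% were lower, and this list too was drawn up after the values were seen. Of the 17 MYC targets on their own rows none was called by DESeq2 or edgeR (median -0.45; unadjusted p under 0.05 in 5). None of 12 S phase and 11 G2/M phase own rows was called by either tool (medians -0.03 and -0.22, unadjusted p under 0.05 in 1 and 0). Of 4 S phase and 3 G2/M phase opposite rows DESeq2 called 1 and 0 (medians -0.03 and 0.44). The own rows were low. With vehicle in the KRAB line all 12 summed to 255, 228 and 198 normalized counts and all 11 to 297, 267 and 229. A missing call there says little at this depth. GSE1 (7 bases opposite GINS2, a replication factor) had a log2 interaction of -1.34 (SE 0.379, adjusted p 0.0103), a call lost without replicate 1 of the neutral tamoxifen group (0.0724) and with voom (0.0645).

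**Figure D4:**
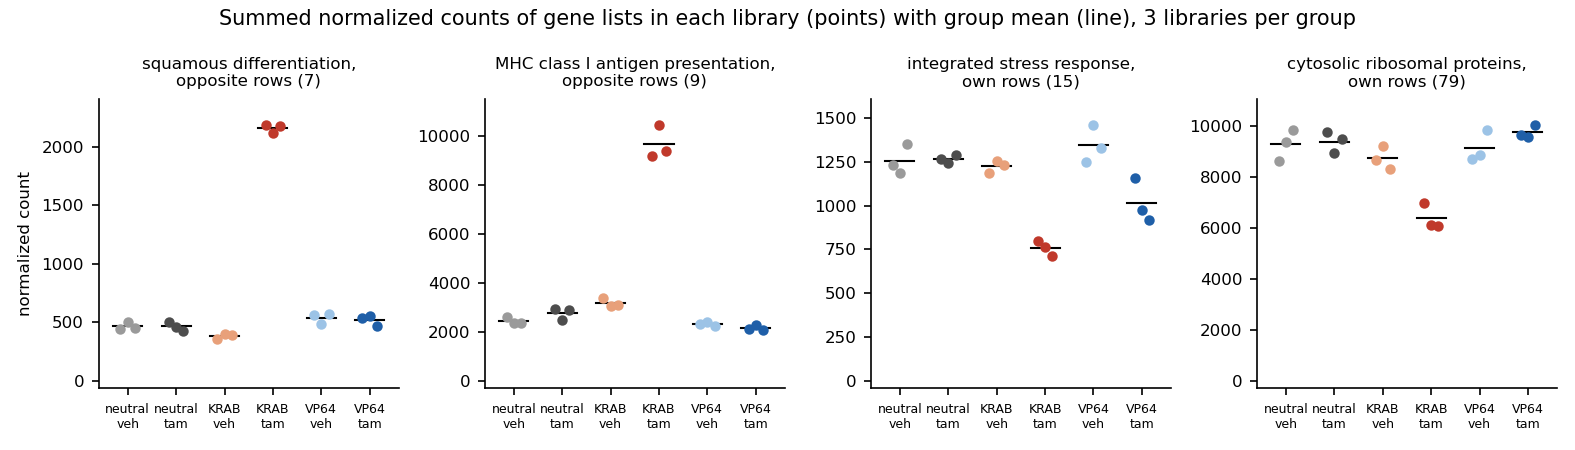
Each panel gives the summed normalized counts of a gene list (y axis, linear from 0) in the 6 groups (x axis), with points for libraries (3 per group) and lines for group means. With tamoxifen in the KRAB line the 7 squamous rows reach 2118 to 2189 and the 9 class I rows 9184 to 10451, and the 79 ribosomal protein rows drop to between 6075 and 6985; the 15 stress-response rows are lower in the tamoxifen than in the vehicle libraries of both the KRAB and the VP64 line.

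Single rows outside these groups were also large. BEST1 (opposite FTH1, the ferritin heavy chain that stores iron; chosen after its values were seen) took 5.55 to 6.997% of all counts with vehicle and 12.4 to 12.8% with tamoxifen in the KRAB line, 7.33 to 7.58% and then 8.95 to 9.50% in the neutral line, and 6.34 to 7.12% and then 4.79 to 5.68% in the VP64 line. Its interaction was 0.78 (SE 0.110, adjusted p 4.62e-10). A row of this size bears on scaling: dividing by total counts in place of the median of ratios moved all interactions by a median of -0.13, and by -0.06 with BEST1 left out of the totals. The share of called rows that were higher was 60.7% (136 of 224), 36.5% of 252 with total counts and 50.4% of 226 with BEST1 left out, and all 224 rows kept their sign under both.

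CTD-2636A23.2 (opposite HMGCS1, an early enzyme of cholesterol synthesis) rose with tamoxifen in each line. It went from 282, 210.2 and 222 to 1271, 1465 and 1442 in the KRAB line, from 282, 292 and 275 to 524, 462 and 379 in the neutral line and from 216, 184 and 196 to 525, 477 and 693 in the VP64 line. The KRAB rise was the larger (interaction 1.86, SE 0.191, adjusted p 1.31e-19). IDI2-AS1 (opposite IDI1, an isomerase of the same pathway) had an interaction of 1.16 (SE 0.260, adjusted p 4.01e-04). None of the 12 own rows of cholesterol genes was called by DESeq2 or edgeR or had an unadjusted p under 0.05 (median 0.12), and these were 2 of the 7 opposite rows.

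H19, an imprinted noncoding RNA, and its neighbour IGF2 (a growth factor, 333 bases opposite IGF2-AS) both stood apart in the KRAB line before tamoxifen. H19 had 101, 110.5 and 107 with vehicle in the KRAB line and 37.5, 23.0 and 15.8 in the neutral line (log2 2.07, adjusted p 1.61e-10), and rose to 382, 376 and 322 with tamoxifen in the KRAB line only (interaction 1.80, SE 0.399, adjusted p 3.16e-04). IGF2 had 45.6, 59.3 and 36.7 and then 154, 157 and 182 in the KRAB line, and at most 16.4 in any neutral library (1.83, SE 0.579, adjusted p 0.0284). Its call was lost without any 1 of 7 libraries (adjusted p up to 0.192) and with edgeR (0.0755). Vehicle differences between the lines were not limited to these rows. With vehicle, AC019349.5 (log2 1.23, DESeq2 adjusted p 1.46e-09) and TAPSAR1 (0.62, adjusted p 1.49e-06) were higher in the KRAB than in the neutral line. RP11-706C16.8 was lower (-0.99, adjusted p 0.00365).

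The largest lower rows outside the lists were RP11-154D6.1 (absent from the annotation used; -1.78, adjusted p 1.43e-05), RP5-955M13.4 (opposite KCNG1, a potassium channel subunit; -1.70, adjusted p 0.00187), RP5-1050D4.3 (opposite CAMTA2, a transcription activator; -1.44, adjusted p 2.70e-07), LINC00910 (836 bases opposite a gene without a symbol; -1.42, adjusted p 0.00436; 0.0539 without replicate 1 of the KRAB tamoxifen group) and CTC-564N23.2 (opposite ZBED3; -1.34, adjusted p 0.00218). Of these, RP11-154D6.1 moved up in the VP64 line, from 85.6, 120 and 69.7 to 175, 168 and 193 (log2 0.96, adjusted p 1.73e-04). DNASE1 (opposite TRAP1, a mitochondrial chaperone) and VIM-AS1 (opposite VIM, the filament protein vimentin), chosen after their values were seen, had log2 interactions of -0.86 (adjusted p 1.60e-12) and -0.35 (adjusted p 1.47e-04). VIM-AS1 went from 8745, 9012 and 9496 to 6767, 7103 and 7161 in the KRAB line.

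In some higher rows the KRAB effect was small and the neutral line fell. Of the 15 rows in which the neutral effect was the larger, 13 were higher. Examples chosen after their values were seen were PCSK7 (a proprotein convertase, 4570 bases opposite a gene without a symbol), RP4-734G22.3 (opposite CASZ1, a zinc finger factor) and RP5-977B1.11 (not matched). PCSK7 had 128, 95.6 and 101 with vehicle and 22.2, 39.0 and 21.4 with tamoxifen in the neutral line, and 14.2 to 31.4 in all 6 KRAB libraries (interaction 2.27, SE 0.451, adjusted p 3.10e-05). RP5-977B1.11 fell from 897, 922 and 913 to 442, 527 and 442 in the neutral line and held 249 to 284 in the KRAB line (0.96, SE 0.160, adjusted p 2.26e-07). Both were lower in the KRAB than in the neutral line already with vehicle, by 2.28 (adjusted p 4.29e-11) and 1.77 (adjusted p 5.13e-54). RP4-734G22.3 had 477, 506 and 514 and then 287, 283 and 309 in the neutral line, and 306 to 426 in the KRAB line (0.96, SE 0.179, adjusted p 6.27e-06). RP11-611O2.5 (opposite MDM2, the ubiquitin ligase of p53) moved both ways, up from 210, 241 and 248 to 321, 406 and 442 in the KRAB line and down from 352, 422 and 299 to 242, 238 and 208 in the neutral line (1.38, SE 0.221, adjusted p 5.38e-08).

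**Figure D5:**
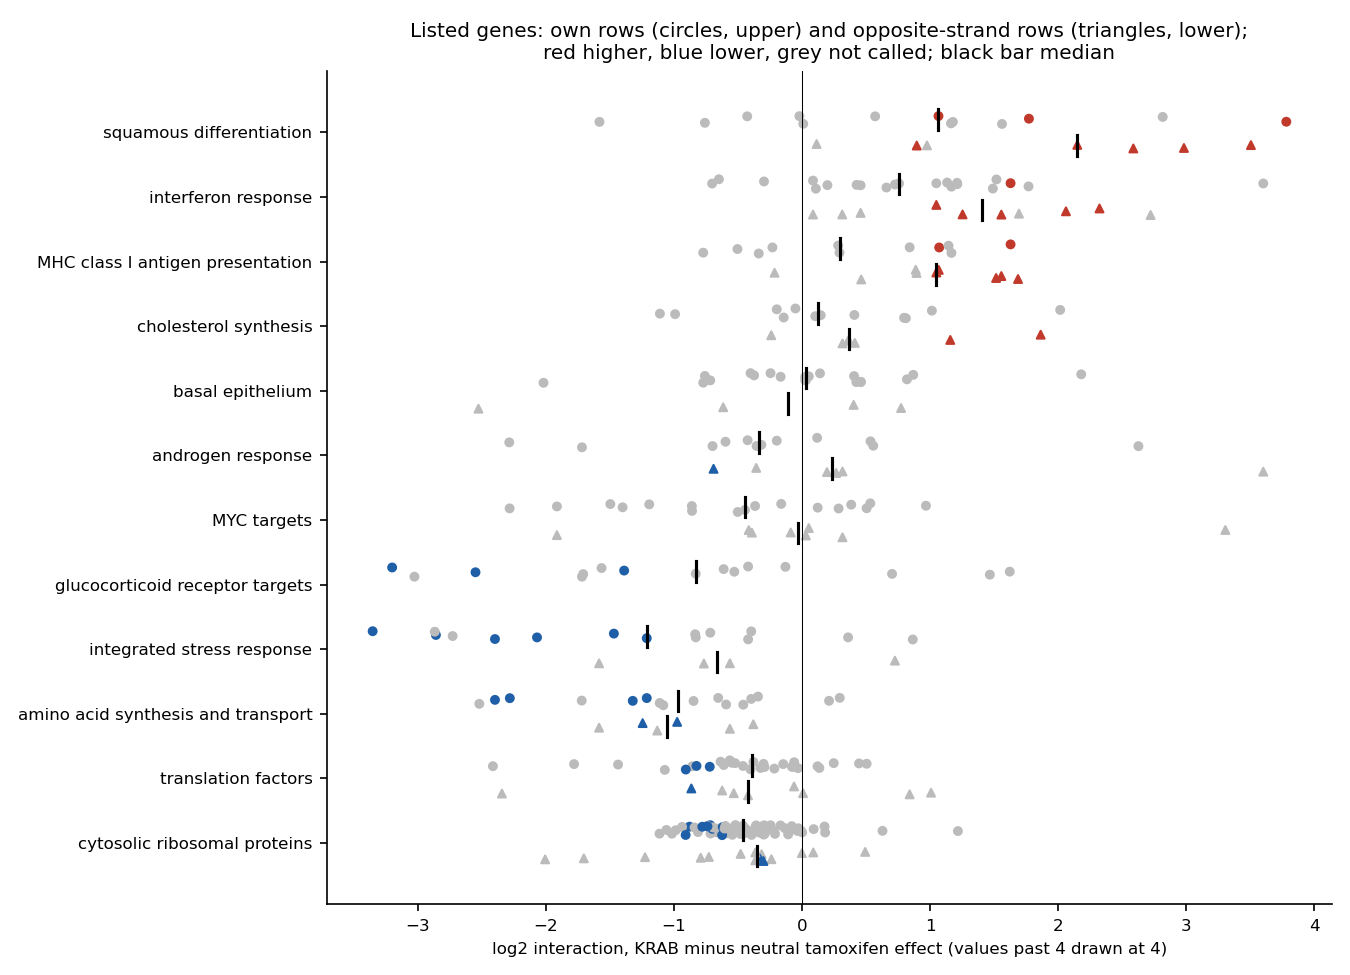
Each symbol is the log2 interaction (x axis) of a tested row on 1 of 12 gene lists (y axis), with circles for own rows, triangles for rows on the opposite strand, red for higher, blue for lower and grey for rows not called, and a black bar at each median. The squamous, interferon and class I lists hold red symbols only among their called rows, and the glucocorticoid, stress, amino acid, translation and ribosomal lists blue ones only.

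Opposite-strand overlap was unevenly spread over the called rows. It was present in 94.4% of the matched higher rows and 68.7% of the matched lower rows, beside 67.9% of all matched rows tested. The called rows had higher counts than the rest, with a median row mean of 179 for higher and 216 for lower rows, beside 16.6 over all rows. The share of overlap among rows of like counts was not tested. When rows with any such overlap were left out, 18 rows were called, 8 higher and 10 lower. Among 868 pairs of rows opposite each other, 100 held a called row, in 65 of those both rows had the same sign, and both were called in 3. The same-sign share over all 868 pairs was not taken, so the 65 is no measure of agreement between strands.

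The VP64 effect is not a term of the interaction, although its 6 libraries entered the filter, the scaling and the estimate of the spread. There 163 rows were called (2.80%, with 1.34% higher and 1.46% lower), and of the 224 members 41 were (18.3%), 24 of the higher and 17 of the lower. These shares are not at like counts. The median row mean over the 12 libraries was 179 normalized counts for higher and 216 for lower members, beside 16.6 over all rows tested. Of the 24, 13 moved up and 11 down, and of the 17, 6 moved up and 11 down. The median VP64 effects over all members were -0.0025 for the higher and -0.04 for the lower rows. Of 17 own rows of the KRAB co-repressor machinery none was called by DESeq2 or edgeR (unadjusted p under 0.05 in 1), and of 7 opposite rows RP5-940J5.6 (opposite CHD4, a NuRD subunit) was higher by 0.53 (adjusted p 0.0292; lost without any 1 of 7 libraries, with edgeR, 0.0955, and with total counts, 0.150). Of markers of other cell types ACTA2-AS1 (opposite ACTA2, smooth muscle actin) went from 14.2, 14.4 and 7.35 to 24.3, 39.5 and 38.8 in the KRAB line and from 17.7, 19.1 and 13.8 to 0, 12.7 and 10.2 in the neutral line (2.66, SE 0.839, adjusted p 0.0275; 0.0646 with edgeR, and lost without any 1 of 4 libraries), and the summed level of the 25 markers was 142 to 202 CPM across the 12 libraries.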

How the data were processed

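RNA-seq was measured in 18 libraries of RWPE1 cells, 6 groups of 3. The deposited table holds estimated counts per gene, which the authors made with nf-core/rnaseq 3.10 and Salmon 1.9.0 against GRCh37; the labels also name DESeq2 1.28.0. Estimated counts were rounded to whole numbers (1.10% were not whole), and rows with at least 10 counts in at least 3 of the 18 libraries were kept, 5816 of 57773. DESeq2 1.42.0 in R 4.3.3 was fitted to the means of the 6 groups over all 18 libraries, with median-of-ratios scaling, the Wald test, independent filtering and Benjamini-Hochberg adjustment, and rows under an adjusted p of 0.05 were called. Beyond independent filtering, 3110 rows had an adjusted p. Normalized counts are counts divided by the size factors. A value of 0 sets a floor of 3 counts per library, which covers counting error only.

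Rows were named by rule: up to 10 higher and 10 lower called rows with the largest interaction at a mean of at least 50 normalized counts over the 12 libraries, the called members of 15 gene lists, and a few steroid receptor targets and construct genes. Members and lists were chosen with earlier results of these data known, and 4 more lists and the rows marked as such were chosen after values were seen. A few items are not reported here. Opposite-strand overlap came from GENCODE v44 lifted to GRCh37, which held 96.1% of the rows. Nothing said that replicates were separate cultures beyond the word biological, so p-values measure the spread between these libraries. Replicates of a group differed by more than sampling noise (chi-square per degree of freedom 2.84 to 3.79), so no library was taken as a copy. edgeR 4.0.16 (quasi-likelihood, TMM), limma 3.58.1 (voom), scaling, filters, the libraries used and leaving out each library were tried as alternatives, and the fit was tested on simulated data. Promoter sequences are from RefSeq.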

Additional observations from a re-analysis of the deposited data

Results flagged for a closer look

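The tamoxifen effect of the KRAB line differed from that of the neutral line in 224 rows (DESeq2 interaction test, adjusted p under 0.05, 3 libraries per group), and each of the 74 called rows named in the results is listed here with its log2 interaction for that reason. Among rows of squamous differentiation and epithelial surface genes the log2 interactions were 3.50 for RP11-706C16.8 (opposite LY6D), 3.78 for LY6D, 2.98 for AC019349.5 (opposite KRT13), 2.59 for SERPINB11 (opposite SERPINB3), 2.15 for CTC-518B2.12 (opposite KLK10), 1.77 for FGFBP1, 1.07 for CDSN (opposite PSORS1C1), 0.90 for RP11-770G2.5 (opposite OVOL1), 1.88 for C10orf55 (opposite PLAU) and 1.69 for AP001615.9 (opposite RIPK4). Among interferon and class I rows they were 2.32 for CTD-2047H16.4 (opposite RNF213), 2.06 for AP001610.5 (opposite MX1), 1.76 for ANGPTL6 (opposite SHFL), 1.25 for NANS (opposite TRIM14), 1.53 for TLDC2 (opposite SAMHD1), 1.56 for XXbac-BPG248L24.12 (opposite HLA-B), 1.63 for HLA-B, 1.07 for HLA-C, 1.51 for HCG4P11 (opposite HLA-F), 1.69 for HCG4P7 (opposite HLA-H), 1.05 for TAPSAR1 (opposite TAP1) and 1.07 for CTC-425F1.4 (opposite CALR). Other higher rows had values of 1.86 for CTD-2636A23.2 (opposite HMGCS1), 1.16 for IDI2-AS1 (opposite IDI1), 1.83 for IGF2 (opposite IGF2-AS), 1.80 for H19, 0.78 for BEST1 (opposite FTH1), 2.27 for PCSK7, 0.96 for RP4-734G22.3 (opposite CASZ1), 0.96 for RP5-977B1.11, 1.38 for RP11-611O2.5 (opposite MDM2), 0.53 for RP5-940J5.6 (opposite CHD4) and 2.66 for ACTA2-AS1 (opposite ACTA2). LTBR (opposite SCNN1A) had a value of -1.95. Steroid-responsive and luminal rows had values of -3.20 for TSC22D3 (opposite NCBP2L), -1.39 for CEBPD, -2.55 for MT2A, -8.02 for PSCA (opposite JRK), -0.37 for RP3-416H24.1 (opposite KRT7) and -0.69 for RP11-66B24.4 (opposite ALDH1A3). Stress-response and amino acid rows had -3.35 for DDIT3 (opposite MARS1), -2.86 for STC2, -1.47 for NUPR1, -2.40 for PHGDH, -2.07 for TRIB3, -1.21 for SLC3A2, -1.32 for SLC1A5, -2.28 for AARS (opposite DDX19B), -1.24 for RP11-498C9.13 (opposite PYCR1) and -0.97 for SLC4A5 (opposite MTHFD2). Ribosomal protein and translation rows had -0.88 for RPL3, -0.72 for RPS24, -0.53 for RPS2, -0.70 for RPL13A, -0.78 for RPS14, -0.62 for RPL13, -0.74 for RPL4 (opposite ZWILCH), -0.62 for RPS17L, -0.91 for RPS18, -0.34 for SH3D19 (opposite RPS3A), -0.33 for ATG10 (opposite RPS23), -0.30 for AC010761.8 (opposite RPL23A), -0.91 for PABPC1, -0.72 for EEF1A1 (opposite EEF1A1-AS1), -0.82 for EEF2 and -0.86 for RP11-983P16.4 (opposite EIF4B). The remaining lower rows had -1.78 for RP11-154D6.1, -1.70 for RP5-955M13.4 (opposite KCNG1), -1.44 for RP5-1050D4.3 (opposite CAMTA2), -1.42 for LINC00910, -1.34 for CTC-564N23.2 (opposite ZBED3), -1.34 for GSE1 (opposite GINS2), -0.86 for DNASE1 (opposite TRAP1) and -0.35 for VIM-AS1 (opposite VIM). The fitted value of PSCA rests on 0 counts in the KRAB tamoxifen libraries and is no measure of size; its bound is given with its counts. No group held more than 3 libraries, so single libraries were not tested as outliers.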

How the results depend on the processing

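All 224 called rows kept the sign of their interaction with edgeR, voom, total-count scaling, the replicate block and each left-out library. Of the 74 called rows that are named, 44 were called without each single library, and 43 under every refit of all rows; edgeR lost 19, voom 23, total-count scaling 4 and the block 3. With edgeR 154 rows were called (141 of the 224), 56 of them lower, beside 22 in the neutral line, 102 in the VP64 line and 27 members in the VP64 line. With voom 150 were called (147 shared), 50 lower, with 18 in the neutral line. Total-count scaling gave 160 lower rows, and dropping independent filtering gave 26 in the neutral line. Requiring a log2 value above 1 in size left 104 (66 higher, 38 lower), with 241 in the KRAB line, 2 in the neutral line, 21 in the VP64 line and 5 members in the VP64 line. Without opposite-strand overlap 1807 rows were left, 18 were called (8 higher, 10 lower), and the KRAB line had 88, the VP64 line 8 and the neutral line 0 by DESeq2, where 108 had an unadjusted p under 0.05 and edgeR called 4; 0 of the 18 were called in the VP64 line, 2 at an unadjusted p under 0.05 and 1 with edgeR.

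Leaving out 1 library gave 169 to 210 called rows (108 to 136 higher, 61 to 82 lower), 443 to 502 in the KRAB line, 25 to 36 in the neutral line, 94 to 130 in the VP64 line and 28 to 45 members in the VP64 line. The neutral count was 27 and 25 without replicates 1 and 3 of its tamoxifen group, and the VP64 count 94 without replicate 3 of its tamoxifen or replicate 2 of its vehicle group. Among lists, the stress-response own rows called went from 6 to 3 (edgeR) and 2 (voom, or without replicate 2 of the KRAB tamoxifen group), the ribosomal own rows from 9 to 3, 2 and 15 (edgeR, voom, total counts) and 3 to 13 with 1 library left out, the squamous opposite rows from 5 to 3 (edgeR and voom) and 3 to 5, the squamous own rows from 3 to 1 without replicate 2 of the KRAB tamoxifen group, the class I own rows from 2 to between 0 and 3, and the amino acid own rows from 4 to between 1 and 4. The causes were not tested.

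Replicate numbers recur across groups but did not pair the libraries: deviations of same-numbered libraries correlated from -0.32 to 0.14, and 0 of 12 libraries correlated best with their own number. The replicate block gave 212 called rows, 209 of them shared. At 675609 to 792282 counts per library, changes in low rows were often not detectable at this depth, and 2706 of the rows tested received no adjusted p.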
